A study of Mus musculus with 12 samples.

Results

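The genes described here are Nr3c1, which encodes the glucocorticoid receptor, and 7 genes known as classic targets of this receptor, Sgk1, Tsc22d3, Dusp1, Errfi1, Fkbp5, Klf9 and Zbtb16. These 8 genes were taken by name from a count table of 55414 genes, without a cutoff on any value in it. Earlier results of these data were known when they were chosen. For each of them the effect of losing the receptor was measured in Paneth cells and in the other cells of the crypt, and the effects in these 2 cell fractions were then compared. Of the 8 genes, 7 had enough counts to be tested, and Zbtb16 did not.

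The glucocorticoid receptor is held in the cytoplasm by HSP90 chaperones until a glucocorticoid hormone binds it. It then enters the nucleus, where it binds glucocorticoid response elements in DNA and raises the transcription of nearby genes, and it also restrains inflammatory transcription factors such as AP-1 and NF-kB. In the intestinal epithelium glucocorticoids are known for promoting maturation, for stimulating salt transport and for damping inflammation, and Paneth cells are the crypt cells that secrete antimicrobial peptides.

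The table holds 12 RNA-seq libraries in 4 groups of 3, from untreated young adult C57BL/6J mice. Cells from small-intestinal crypts were sorted by FACS into Paneth cells and non-Paneth cells, from wild-type (WT) mice or from GRvillinKO mice, called GRKO here. The name GRvillinKO stands for a loss of the receptor in cells that express villin, a protein of the epithelial brush border, and so cells outside the epithelium keep the receptor. Which alleles and exons were removed, and how the non-Paneth cells were gated, was not stated in the sources read. The sample titles and descriptions give the genotype used here, whereas the genotype field of the same records lists every Paneth library as WT and every non-Paneth library as GRKO.

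The libraries held 11126297 to 15910292 counts in total. Lyz1 and the Defa genes, the antimicrobial genes of Paneth cells, took 37.4 to 46.9% of all counts in the 6 Paneth libraries and at most 0.139% in the others. The Paneth and non-Paneth libraries therefore matched their labels. The unit of level is CPM, in which counts are divided by the library total. Fold changes come from edgeR's quasi-likelihood test with TMM scaling, which allows for such differences in composition, on the 13057 genes that passed the filter on low counts. An adjusted p under 0.05 was counted as a call, and the error given is the standard error (SE). Both libraries of WT replicate 2 carried Xist, at 126.5 and 256.6 CPM against at most 0.520 CPM in the other 10 libraries. Y-linked genes summed to at most 0.973 CPM in these libraries and to 53.8 CPM or more in the others, so that this replicate was female and the others were male. The labels name no animals behind the replicate numbers, and p-values measure the spread between these libraries only.

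The promoters of the target genes were searched for the sequence the receptor binds. RefSeq promoter windows of 300 bases, from 250 bases before to 50 bases after a transcription start on the GRCm38.p6 build, were found for 6 of the 8 genes, in 14 windows. Nr3c1 and Zbtb16 had no entry. The windows were not spread evenly over the genes, and Sgk1 had more of them than any other, so more of its sequence was searched. The glucocorticoid response element is an inverted repeat of the 6-base arm AGAACA with 3 bases between the arms, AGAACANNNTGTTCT. On both strands, 3 of 32851 windows in the whole RefSeq table held this exact sequence (0.0091%), and 1 of them belonged to Sgk1. It is shown with the bases beside it, because among the 6 genes with windows Sgk1 alone had such an element in one, and because Sgk1 was lower in GRKO cells of both fractions. The 15 bases of the element are in capitals.
Sgk1 element: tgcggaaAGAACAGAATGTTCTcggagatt
The window that holds it lies on the plus strand of chr10:21993640-21993939, and the element begins at position −189 from the start of that window's transcript. The shorter core GNACANNNTGTNC, which leaves 2 positions of the arms free, was found in 156 windows (0.475%), again with this Sgk1 window as the only one of the 14 searched. The whole window is given below to show the element in its place, again in capitals. A further single arm, nearer the 5′ end of the window, is left in lower case.
Sgk1 window: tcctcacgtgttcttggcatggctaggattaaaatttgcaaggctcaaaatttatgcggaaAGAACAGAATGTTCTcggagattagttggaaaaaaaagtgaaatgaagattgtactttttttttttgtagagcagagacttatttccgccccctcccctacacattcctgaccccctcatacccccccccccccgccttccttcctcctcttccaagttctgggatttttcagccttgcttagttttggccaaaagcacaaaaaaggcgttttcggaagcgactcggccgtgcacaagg
The window matched the GRCm39 genome at 1 place on chromosome 10, with the element at bases 21869600 to 21869614. Of 23 annotated Sgk1 transcripts there, 5 span the element and all of these have it in an intron. Another 16 transcripts start downstream of it, the nearest 175 bases away. A single arm is common, with AGAACA or its complement in 19.0% of all windows, and among the members it was found in 4 windows, of Sgk1 and Tsc22d3. The Tsc22d3 window is shown because this gene was also lower in GRKO non-Paneth cells. It lies on the minus strand of chrX:140600473-140600772, and its arm, in capitals, begins at position −185.
Tsc22d3 window: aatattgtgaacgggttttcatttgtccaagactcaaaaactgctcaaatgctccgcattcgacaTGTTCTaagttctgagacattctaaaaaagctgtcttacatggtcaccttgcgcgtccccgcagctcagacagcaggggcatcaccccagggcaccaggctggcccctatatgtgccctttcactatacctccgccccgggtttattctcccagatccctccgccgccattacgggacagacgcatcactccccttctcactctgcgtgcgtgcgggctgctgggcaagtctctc
The windows of Dusp1, Errfi1, Fkbp5 and Klf9 held none of these sequences, and Dusp1 and Errfi1 were also lower in GRKO non-Paneth cells. A match is a description of the letters in a window, and receptor binding was not measured in these libraries.

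Nr3c1 (ENSMUSG00000024431, GRCm39 chromosome 18, 39543598 to 39652474, minus strand), the deleted gene, was low in GRKO libraries of both fractions. In Paneth cells it was found at 33.7, 33.0 and 41.1 CPM in the WT libraries and at 5.28, 4.73 and 12.1 CPM in the GRKO libraries. In non-Paneth cells it was found at 134.6, 150.9 and 159.5 CPM in WT and at 29.2, 19.6 and 36.2 CPM in GRKO. The genotypes overlapped in neither fraction, so all 12 libraries matched the genotype in their titles. In Paneth cells Nr3c1 was 4.95-fold lower in GRKO (log2 fold change −2.31, SE 0.32, edgeR adjusted p = 0.0331), and in non-Paneth cells it was 6.38-fold lower (log2 fold change −2.67, SE 0.30, edgeR adjusted p = 6.67e-05). The GRKO mean was 20.5% of the WT mean in Paneth cells and 19.1% in non-Paneth cells, by CPM. Counts per gene do not show which exons these remaining reads cover, and reads from exons outside a deleted part would still be counted. In a bulk library, fewer cells with the transcript and less RNA per cell cannot be told apart.

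The call for Nr3c1 in Paneth cells depended on single libraries, while its direction did not. The adjusted p was 0.121 (log2 fold change −2.42) without WT Paneth replicate 1 and 0.154 (−2.03) without GRKO Paneth replicate 2. It was 0.0712 with both libraries of the female WT replicate left out. In non-Paneth cells Nr3c1 was past the threshold in all 15 alternatives tried. Cells outside the epithelium would keep the receptor, and their markers were few in all libraries. The 6 immune markers summed to 2.43 to 5.84 CPM in WT Paneth, 2.83 to 24.99 CPM in GRKO Paneth, 5.28 to 8.14 CPM in WT non-Paneth and 6.43 to 14.7 CPM in GRKO non-Paneth libraries. The higher sums in GRKO Paneth libraries came from Ptprc, at 12.5, 23.3 and 1.64 CPM, while Itgam was at 0.559, 1.65 and 1.12 CPM. Cd3e and Cd52 had no count in these libraries, and Cd79a and Laptm5 were at most 0.320 CPM. Pecam1 was the only one of the 3 endothelial markers with a count, at most 0.629 CPM, and the 4 stromal and 2 red blood cell markers each summed to at most 0.314 and 0.0716 CPM. The part of such cells in the remaining Nr3c1 was not tested. Vil1, the gene of villin itself, was found at 280.7 to 343.0 CPM in WT Paneth and 2932 to 3059 CPM in WT non-Paneth libraries.

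**Figure D1:**
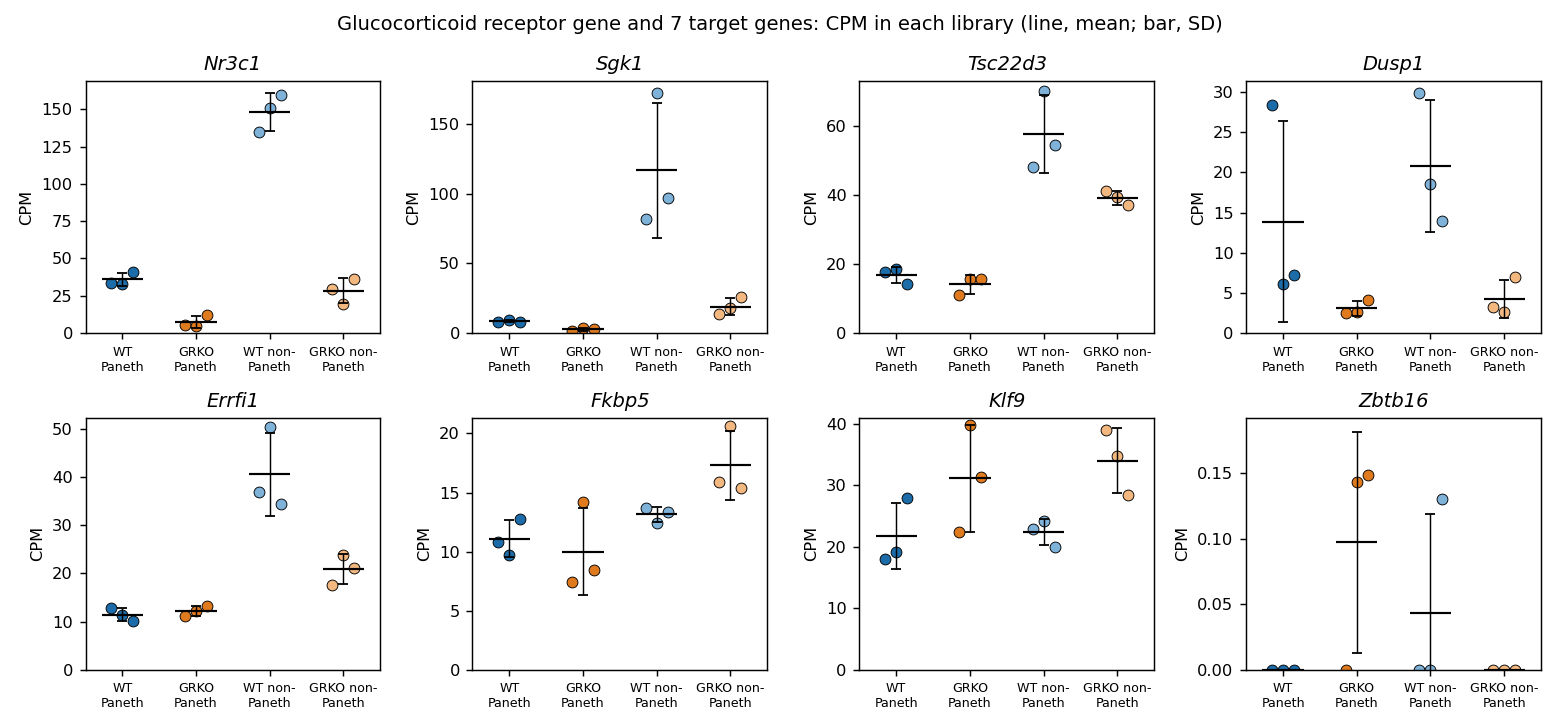
CPM of Nr3c1 and its 7 targets in each of the 12 libraries, 1 panel per gene, with 3 points per group, a line at the mean and a bar of 1 SD. GRKO points lie below WT points in both fractions for Nr3c1, Sgk1 and Dusp1 and in non-Paneth cells for Tsc22d3 and Errfi1, and Zbtb16 was nearly undetected.

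Among the 7 members tested, 2 were lower and none higher in GRKO Paneth cells, where 3.22% of all 13057 genes were called, 1.52% lower and 1.70% higher. These were Nr3c1 itself and Sgk1. At an unadjusted p under 0.05, Dusp1 joined them as lower and Klf9 was higher, 4 members in all, where 26.7% of all genes had such a p. In GRKO non-Paneth cells 5 members were lower and none higher, where 37.3% of all genes were called, 19.8% lower and 17.5% higher. No further member had an unadjusted p under 0.05 there, where 46.5% of all genes had one. These were Nr3c1, Sgk1, Tsc22d3, Dusp1 and Errfi1. The median log2 fold change of the 7 members was −0.29 in Paneth and −1.25 in non-Paneth cells, beside 0.03 and 0.02 over all genes tested. Nr3c1 is the deleted gene, and its lower value follows from the deletion, yet it is counted in these calls and medians. Among the targets alone, the calls were Sgk1 in Paneth cells and Sgk1, Tsc22d3, Dusp1 and Errfi1 in non-Paneth cells. Calls over all genes in Paneth cells also depended on single libraries, with 420 genes past the threshold, 0 without GRKO replicate 2, 1 without WT replicate 1, 41 without GRKO replicate 3, 86 without WT replicate 2 and 1618 without GRKO replicate 1.

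Sgk1 (ENSMUSG00000019970, GRCm39 chromosome 10, 21758083 to 21875802, plus strand) encodes a serum- and glucocorticoid-induced kinase that promotes sodium uptake by epithelia. It was lower in GRKO cells of both fractions. In non-Paneth cells it was found at 81.9, 172.1 and 96.5 CPM in WT and at 13.3, 18.0 and 25.7 CPM in GRKO. In Paneth cells it was low throughout, at 8.15, 9.57 and 7.91 CPM in WT and 1.44, 3.37 and 2.83 CPM in GRKO, from 18 to 118 counts per library. Every WT library lay above every GRKO library of its fraction. The fold was 7.53 in non-Paneth cells (log2 fold change −2.91, SE 0.32, edgeR adjusted p = 7.37e-05) and 3.43 in Paneth cells (log2 fold change −1.78, SE 0.40, edgeR adjusted p = 0.0448). The Paneth call was close to the threshold, and the adjusted p was 0.149 without WT replicate 1, 0.0694 without WT replicate 2, 0.224 without GRKO replicate 2 and 0.0892 without GRKO replicate 3. With both libraries of WT replicate 2 left out it was 0.0712 (log2 fold change −1.59). Sgk1 stayed lower in GRKO Paneth cells in all 15 alternatives, with log2 fold changes from −1.97 to −1.57.

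Dusp1 (ENSMUSG00000024190, GRCm39 chromosome 17, 26724564 to 26781102, minus strand) encodes a phosphatase that switches off MAP kinases. In non-Paneth cells it was found at 29.9, 18.5 and 13.99 CPM in WT and at 3.19, 2.58 and 6.94 CPM in GRKO. The Paneth libraries held 28.4, 6.08 and 7.19 CPM in WT and 2.48, 2.65 and 4.17 CPM in GRKO. The genotypes did not overlap in either fraction, but WT Paneth replicate 1 stood far above its group. Dusp1 was 5.95-fold lower in GRKO non-Paneth cells (log2 fold change −2.57, SE 0.59, edgeR adjusted p = 0.00794) and did not pass the threshold in Paneth cells (log2 fold change −2.12, SE 0.62, edgeR adjusted p = 0.0781). Without WT Paneth replicate 1 the Paneth value was −1.19 on the log2 scale, with an adjusted p of 0.206. DESeq2 gave −2.12 with an adjusted p of 0.0125. Dusp1 shares 38 exonic bases with Ergic1 on the other strand, 1.14% of its exonic length.

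The value of Dusp1 moved together with the immediate early genes, which respond within minutes to growth factors, stress and tissue handling. The CPM of 11 immediate early and heat shock genes summed to 1622, 522.0 and 537.3 in WT Paneth and to 301.7, 281.0 and 425.0 in GRKO Paneth libraries. In non-Paneth libraries the sum was 1774, 1229 and 966.8 in WT and 407.2, 385.0 and 654.2 in GRKO. WT replicate 1 was the highest library of its group for both Dusp1 and this sum, in both fractions, and GRKO replicate 3 was the highest of its group for both, again in both fractions. Of the 10 genes tested in this list, 7 were lower in GRKO non-Paneth cells, where 19.8% of all genes were, and none was called in Paneth cells, with median log2 fold changes of −1.74 and −1.29. At an unadjusted edgeR p under 0.05, 7 of the 10 were lower and none was higher in Paneth cells, where 26.7% of all genes had such a p in either direction. Among the genes called in non-Paneth cells, Fosb, a subunit of AP-1, had a log2 fold change of −3.52 (edgeR adjusted p = 0.0195), Fos −2.51 (0.0151), Junb −1.88 (0.00517) and Jun −1.67 (0.0261), all 3 also parts of AP-1. The stress-induced factor Atf3 had −2.91 (0.00538) and the early response gene Ier3 −1.30 (0.00525). The part of these genes in the value of Dusp1 was not tested.

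**Figure D2:**
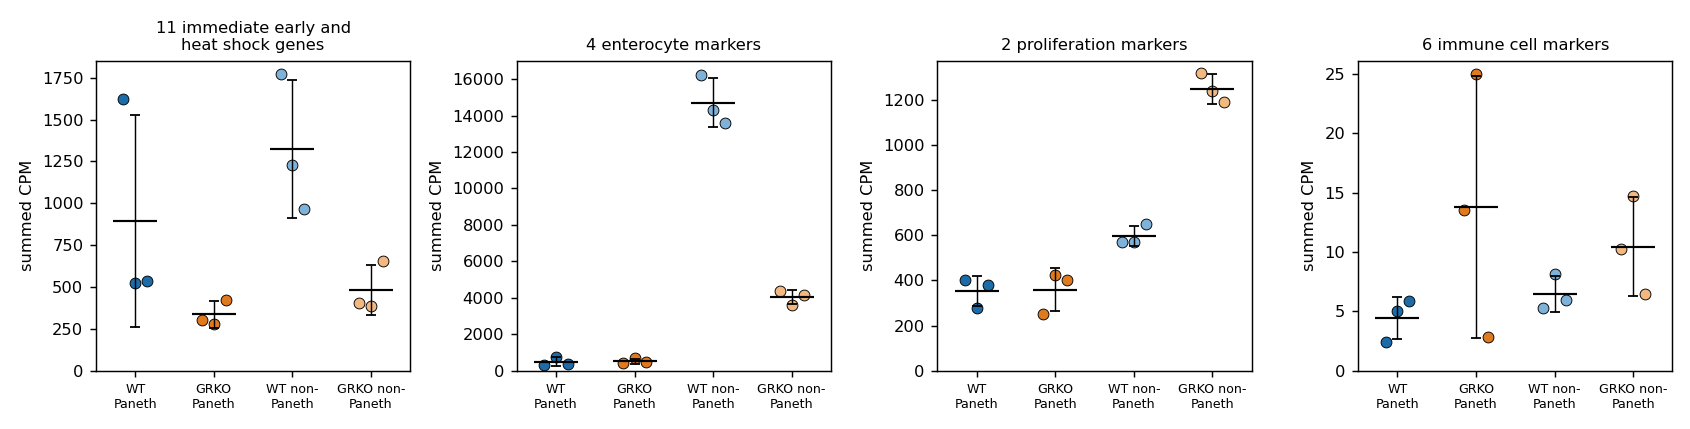
Summed CPM of 4 gene lists in each library, with 3 points per group, a line at the mean and a bar of 1 SD. Immediate early and heat shock genes were highest in replicate 1 of each WT group, enterocyte markers lay at 13575 to 16199 CPM in WT and 3619 to 4376 CPM in GRKO non-Paneth libraries, and immune markers stayed at or below 24.99 CPM. The 2 proliferation markers lay at 569.0 to 650.1 CPM in WT and 1189 to 1318 CPM in GRKO non-Paneth libraries.

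Errfi1 (ENSMUSG00000028967, GRCm39 chromosome 4, 150938376 to 150955402, plus strand) encodes MIG6, an inhibitor of the EGF receptor family. It was lower in GRKO non-Paneth cells, at 36.9, 50.3 and 34.4 CPM in WT and 17.6, 23.8 and 21.2 CPM in GRKO. Paneth cells held 12.8, 11.3 and 10.1 CPM in WT and 11.1, 12.2 and 13.2 CPM in GRKO. The genotypes were apart in non-Paneth cells and intermixed in Paneth cells. The fold was 2.37 in non-Paneth cells (log2 fold change −1.25, SE 0.17, edgeR adjusted p = 6.76e-05), and the log2 fold change in Paneth cells was 0.08 with a 95% interval from −0.30 to 0.45 (edgeR adjusted p = 0.808).

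Tsc22d3 (ENSMUSG00000031431, GRCm39 chromosome X, 139440091 to 139501408, minus strand) encodes GILZ, a leucine zipper protein that mediates anti-inflammatory effects of glucocorticoids. It was lower in GRKO non-Paneth cells by a smaller fold than Sgk1 or Dusp1. In non-Paneth cells it was found at 48.3, 70.2 and 54.7 CPM in WT and at 41.1, 39.4 and 37.1 CPM in GRKO. The Paneth values were 17.8, 18.6 and 14.3 CPM in WT and 11.03, 15.8 and 15.7 CPM in GRKO. The genotypes were apart in non-Paneth cells and overlapped in Paneth cells. The fold was 1.80 in non-Paneth cells (log2 fold change −0.85, SE 0.16, edgeR adjusted p = 0.00103), and the log2 fold change in Paneth cells was −0.29 with a 95% interval from −0.66 to 0.09 (edgeR adjusted p = 0.303).

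Fkbp5 (ENSMUSG00000024222, GRCm39 chromosome 17, 28618058 to 28737521, minus strand) encodes FKBP51, a co-chaperone of HSP90 that lowers the affinity of the receptor for hormone and so closes a feedback loop. It passed the threshold in neither fraction. In Paneth cells it was found at 10.8, 9.73 and 12.8 CPM in WT and at 7.43, 14.2 and 8.41 CPM in GRKO, where the genotypes overlapped. In non-Paneth cells it was found at 13.7, 12.45 and 13.3 CPM in WT and at 15.9, 20.6 and 15.3 CPM in GRKO. These non-Paneth values were apart by CPM but overlapped after TMM scaling. The log2 fold change was −0.18 (95% interval −0.59 to 0.24, edgeR adjusted p = 0.588) in Paneth and 0.11 (−0.29 to 0.51, edgeR adjusted p = 0.688) in non-Paneth cells, and the latter had the other sign, −0.09, without GRKO non-Paneth replicate 2.

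Klf9 (ENSMUSG00000033863, GRCm39 chromosome 19, 23118187 to 23148497, plus strand) encodes a transcription factor of the Krüppel-like family. It did not pass the threshold in either fraction. In Paneth cells it was found at 18.0, 19.2 and 27.9 CPM in WT and at 22.4, 39.7 and 31.3 CPM in GRKO, and in non-Paneth cells at 22.9, 24.1 and 20.04 CPM in WT and 38.9, 34.8 and 28.4 CPM in GRKO. Each GRKO mean was above the WT mean, and as with Fkbp5 the non-Paneth libraries were apart by CPM but overlapped after TMM scaling. The log2 fold change was 0.49 (95% interval 0.08 to 0.89, edgeR adjusted p = 0.123) in Paneth and 0.32 (−0.08 to 0.72, edgeR adjusted p = 0.197) in non-Paneth cells. With scaling by library totals alone, which moved the median of all genes in non-Paneth cells to 0.31, the non-Paneth value of Klf9 was 0.61 with an adjusted p of 0.0275.

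Zbtb16 (ENSMUSG00000066687, GRCm39 chromosome 9, 48563141 to 48748664, minus strand) encodes PLZF, a zinc finger transcription factor. It was nearly undetected, with 2 counts each in GRKO Paneth replicates 2 and 3 and in WT non-Paneth replicate 3 and none in the other 9 libraries. A count of 0 allows up to 3 counts, between 0.189 and 0.270 CPM at the depth of these libraries, and no fold was computed. Such limits cover counting error only.

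The question of whether the receptor's loss acted alike in Paneth and non-Paneth cells was put to a test of the difference between both effects, Paneth minus non-Paneth. One of the 7 members, Errfi1, was called, as a positive difference, against 18.7% of all genes tested, 11.5% with a positive and 7.28% with a negative difference. Its difference was 1.33 on the log2 scale (SE 0.24, 95% interval 0.81 to 1.84, edgeR adjusted p = 0.00242), from 0.08 in Paneth and −1.25 in non-Paneth cells. The log2 difference in Errfi1 of the Paneth library from the non-Paneth library with its number was −0.96, −1.28 and −1.08 for numbers 1, 2 and 3 in WT. In GRKO the same difference was 0.47, −0.08 and 0.22, and so all 3 WT values lay below all 3 GRKO values. GRKO libraries of the same number were not taken as pairs, so their differences by number are only a description. Errfi1 was past the threshold in all 21 alternatives, with differences from 1.05 to 1.45.

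The other members were not called in this test, which does not show that they changed alike. Sgk1 had a difference of 1.14 (95% interval 0.01 to 2.26, edgeR adjusted p = 0.148), which ranged from 0.73 to 1.42 and passed the threshold in 4 of 21 alternatives. Both fits with a block for the replicate numbers were among these, with an edgeR adjusted p of 0.0475 where WT and GRKO shared the numbers and 0.00676 where the numbers were taken within each genotype. Both of these fits also match GRKO libraries by number, although GRKO libraries were not taken as pairs. The log2 difference of Sgk1 between the Paneth and the non-Paneth library of the same number was −2.75, −3.29 and −2.91 in WT and −2.004, −1.50 and −2.23 in GRKO, so that here too all 3 WT values lay below all 3 GRKO values. Tsc22d3 had a difference of 0.56 (0.06 to 1.07, edgeR adjusted p = 0.112) and was called only without WT Paneth replicate 2 among the 21 alternatives (0.74, adjusted p = 0.0361). Its log2 differences by number were −0.87, −1.05 and −1.25 in WT and −0.75, −0.43 and −0.33 in GRKO. All 3 WT values of Tsc22d3 thus also lay below all 3 GRKO values. For Nr3c1 itself the difference was 0.37 (−0.56 to 1.29, edgeR adjusted p = 0.592), and it was −0.15 without GRKO Paneth replicate 3, the GRKO Paneth library with the most remaining transcript. For Dusp1 it was 0.45 (−1.45 to 2.35, edgeR adjusted p = 0.759), and 1.38 without WT Paneth replicate 1. For Fkbp5 it was −0.28 (−0.86 to 0.29, edgeR adjusted p = 0.503) and for Klf9 0.17 (−0.40 to 0.74, edgeR adjusted p = 0.704). The value of Klf9 fell below 0, to −0.01, without WT Paneth replicate 1. The intervals of Dusp1, Sgk1 and Nr3c1 were the widest.

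**Figure D3:**
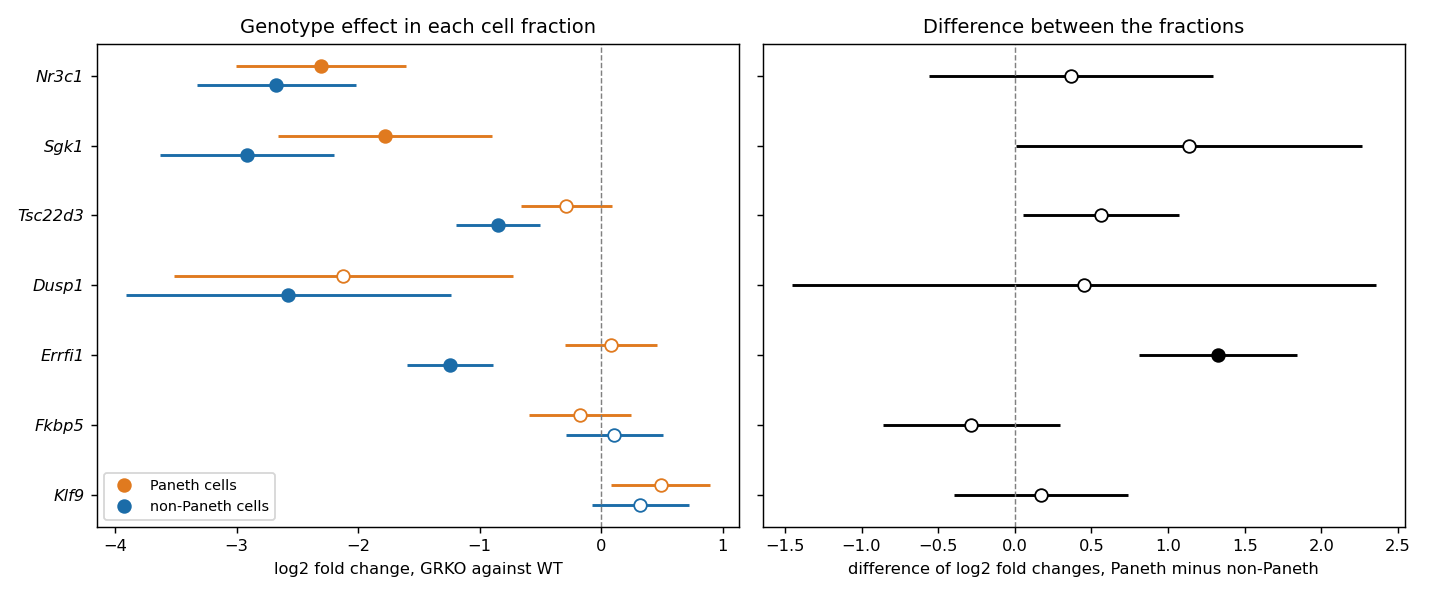
Log2 fold changes of GRKO against WT in Paneth (orange) and non-Paneth cells (blue) on the left, and the difference between both effects on the right, for the 7 members tested, with 95% intervals as lines and filled points for an adjusted p under 0.05. Errfi1, with 0.08 in Paneth and −1.25 in non-Paneth cells, is the only filled point on the right.

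Marker genes of several cell types differed between the genotypes, most of all in the non-Paneth fraction. This stands beside every comparison of the genotypes, above and below. The 4 enterocyte markers summed to 13575 to 16199 CPM in WT and 3619 to 4376 CPM in GRKO, and Vil1 (log2 fold change −1.50, edgeR adjusted p = 1.62e-05) and Fabp1 (−2.46, edgeR adjusted p = 0.0417) among them were called lower. The 2 proliferation markers summed to 569.0 to 650.1 CPM in WT and 1189 to 1318 CPM in GRKO and the 4 stem cell markers to 3990 to 5546 and 6294 to 8340 CPM. The 3 tuft cell markers summed to 2.56 to 7.998 CPM in WT and 69.1 to 280.6 CPM in GRKO. Mitochondrial genes took 6.01 to 6.81% of the counts in WT and 2.85 to 3.04% in GRKO non-Paneth libraries. In Paneth libraries the enterocyte sums overlapped, at 315.6 to 762.2 CPM in WT and 411.6 to 678.9 CPM in GRKO, as did the proliferation sums, and the tuft cell sums overlapped narrowly at 98.3 to 240.4 and 238.6 to 645.7 CPM. The stem cell sums of the Paneth libraries did not overlap and were lower in GRKO, at 5012 to 6502 CPM in WT and 3057 to 4359 CPM in GRKO. Olfm4 made up most of these sums and was not called (log2 fold change −0.71, edgeR adjusted p = 0.0518). Lgr5, Ascl2 and Smoc2 overlapped between the genotypes in Paneth libraries and were not called either (edgeR adjusted p = 0.606, 0.302 and 0.218). Mitochondrial genes took 1.19 to 2.48% of the counts in WT and 0.779 to 1.08% in GRKO Paneth libraries, again without overlap. The part of this make-up in the lower Sgk1, Tsc22d3, Dusp1 and Errfi1 of GRKO non-Paneth cells, or in the lower Sgk1 of GRKO Paneth cells, was not tested. Its part in the genotype effects on the gene lists that follow was not tested either.

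The receptor and several of its targets differed between the 2 fractions of WT mice as well. Of the 7 members tested, 4 were lower and 1 was higher in WT Paneth than in WT non-Paneth cells, where 50.7% of all genes were called, 26.7% lower and 24.0% higher. Nr3c1 was 2.53-fold lower in Paneth cells (log2 fold change −1.34, SE 0.29, edgeR adjusted p = 0.00209). Sgk1 was 8.36-fold lower (log2 fold change −3.06, SE 0.34, edgeR adjusted p = 1.64e-05). Tsc22d3 was 2.09-fold lower (log2 fold change −1.06, edgeR adjusted p = 8.59e-05) and Errfi1 2.19-fold lower (log2 fold change −1.13, edgeR adjusted p = 5.51e-05). These 4 genes were past the threshold in all 16 alternatives. Klf9 was higher in Paneth cells by 0.66 on the log2 scale (edgeR adjusted p = 0.00934), but not without WT Paneth replicate 3 (0.46, adjusted p = 0.0666) and not with scaling by library totals alone (−0.04). Fkbp5 had a value of 0.46 (edgeR adjusted p = 0.0605). With a block for the replicate numbers, which were taken to pair the WT libraries, Fkbp5 was called at 0.45. The edgeR adjusted p was 0.0262 with numbers taken within each genotype and 0.0491 with numbers shared by the genotypes. Without WT Paneth replicate 1 and without WT non-Paneth replicate 1 Fkbp5 was also called, at adjusted p of 0.0427 and 0.0471. Dusp1 had a value of 0.06 (edgeR adjusted p = 0.934), and −0.87 without WT Paneth replicate 1. Scaling by library totals alone moved the median of all genes in this comparison to −0.68, so that the values of Dusp1, Fkbp5 and Klf9 changed sign under it.

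The order of the groups differed from gene to gene. After TMM scaling, Nr3c1 ran from 122.5 ± 10.8 CPM (SD, n = 3) in WT non-Paneth through 48.4 ± 6.82 in WT Paneth and 19.2 ± 5.76 in GRKO non-Paneth to 9.74 ± 5.04 in GRKO Paneth cells, and only the last 2 of these groups overlapped. Sgk1 had the highest level in WT non-Paneth cells, at 96.7 ± 41.2 CPM (SD, n = 3), and GRKO non-Paneth and WT Paneth cells overlapped next, at 12.8 ± 4.18 and 11.6 ± 2.58. Its lowest level was 3.304 ± 1.02 CPM in GRKO Paneth cells, below every library of the other groups. Errfi1 stood at 33.5 ± 7.45 CPM (SD, n = 3) in WT non-Paneth cells, and the other 3 groups overlapped between 14.1 ± 1.92 and 16.2 ± 1.03. Tsc22d3 likewise stood at 47.8 ± 9.84 CPM (SD, n = 3) in WT non-Paneth cells, above 3 groups that overlapped their neighbours between 18.7 ± 1.78 and 26.5 ± 1.57. For Dusp1, both WT groups overlapped, at 17.7 ± 14.4 CPM in Paneth and 17.2 ± 6.70 in non-Paneth cells, above both GRKO groups at 4.10 ± 1.06 and 2.87 ± 1.6003 (SD, n = 3). Neighbouring groups overlapped throughout for Fkbp5 and Klf9.

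Levels of different genes were also set side by side per kilobase of exonic length. This length counts every base in any annotated exon of a gene, whichever transcripts are expressed, so the order depends on the annotation. Sgk1 and Nr3c1 led in WT non-Paneth cells at 19.4 ± 8.05 and 18.8 ± 1.61 CPM per kilobase (SD, n = 3), and their libraries overlapped. Tsc22d3 followed at 9.33 ± 1.82 and Fkbp5 was the lowest detected member at 1.19 ± 0.0564. In WT Paneth cells Nr3c1 had the highest mean at 4.56 ± 0.567 CPM per kilobase (SD, n = 3), but it overlapped Dusp1 at 4.18 ± 3.78. Sgk1 stood at 1.42 ± 0.149 there, below Dusp1, Tsc22d3, Klf9 and Errfi1. In GRKO Paneth cells Klf9 led at 3.79 ± 1.06 CPM per kilobase and Nr3c1 stood at 0.936 ± 0.523, overlapping Dusp1 and below Tsc22d3 and Errfi1. In GRKO non-Paneth cells Tsc22d3 led at 6.33 ± 0.329 CPM per kilobase and Sgk1 stood at 3.16 ± 1.04, overlapping Errfi1. Sgk1 thus had the highest mean with Nr3c1 in WT non-Paneth cells, where Nr3c1 was above it in replicates 1 and 3, and was the lowest but Zbtb16 in GRKO Paneth cells, at 0.423 ± 0.165 CPM per kilobase.

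Across the 12 libraries, TMM-scaled log2 CPM of Nr3c1 correlated with Sgk1 at Pearson r = 0.887, Tsc22d3 at 0.780, Dusp1 at 0.757, Errfi1 at 0.691, Fkbp5 at −0.276 and Klf9 at −0.694. These points share the 4 groups, so that the values describe the order of groups given above. Over all genes tested, the 5 with the highest r with Nr3c1 over the 12 libraries were the lncRNA D330041H03Rik at 0.981, the inflammatory caspase gene Casp4 at 0.943, Gpbp1l1 at 0.937, Ttc16 at 0.935 and the amino acid transporter gene Slc38a6 at 0.929. D330041H03Rik lay at 1.35 to 1.65 CPM in WT and 0.430 to 0.893 CPM in GRKO Paneth libraries, and at 5.40 to 5.90 and 1.63 to 1.97 CPM in non-Paneth libraries. Casp4 lay at 19.5 to 30.6 and 7.51 to 14.4 CPM in Paneth and at 48.3 to 55.4 and 25.8 to 43.8 CPM in non-Paneth libraries of WT and GRKO mice. Gpbp1l1 lay at 43.2 to 55.3 and 40.2 to 48.0 CPM in Paneth and at 94.0 to 100.7 and 87.9 to 96.7 CPM in non-Paneth libraries of WT and GRKO mice. Ttc16 was nearly undetected, at 0.162 to 0.314 and 0 to 0.0799 CPM in Paneth and 1.04 to 1.43 and 0.189 to 0.340 CPM in non-Paneth libraries of WT and GRKO mice. At this depth 3 counts make 0.189 to 0.270 CPM, so that its r rests on few counts. The genotypes were apart within each fraction for D330041H03Rik and Casp4 and overlapped for Gpbp1l1, and since the genes were picked for their r with Nr3c1, this only describes them.

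The chaperones, co-chaperones and cofactors that work with the receptor were called only as higher in GRKO cells of either fraction. Of 25 such genes, all tested, 12 were higher and none lower in GRKO non-Paneth cells, beside 17.5% of all genes called higher, and 1 was higher and none lower in Paneth cells, beside 1.70% called higher. At an unadjusted edgeR p under 0.05, 13 were higher and 2 lower in non-Paneth cells, and 10 were higher and none lower in Paneth cells, beside 46.5% and 26.7% of all genes in either direction. The median log2 fold change of the list was 0.41 in non-Paneth and 0.21 in Paneth cells. In non-Paneth cells Hsp90aa1, which encodes an HSP90 chaperone, had a log2 fold change of 0.82 (edgeR adjusted p = 0.00492). Ptges3, the gene of the HSP90 co-chaperone p23, had 0.64 (edgeR adjusted p = 0.00631) and Stip1, the gene of the adaptor HOP, 0.63 (edgeR adjusted p = 0.0183). The coactivator gene Ncoa1 was the member of the list called in Paneth cells (0.67, edgeR adjusted p = 0.0409). The effect on the co-chaperone gene Ppid differed between the fractions by −0.65 (edgeR adjusted p = 0.0307) and that on the corepressor gene Ncor1 by 0.65 (edgeR adjusted p = 0.0397). With scaling by library totals alone all values in non-Paneth cells shift upward with the median of all genes. The part of the cell make-up described above in the values of this list was not tested.

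Of 23 other genes known to respond to glucocorticoids, 21 were tested. In GRKO non-Paneth cells 8 were lower and 2 higher, beside 19.8% and 17.5% of all genes. In GRKO Paneth cells none was lower and 2 were higher, beside 1.52% and 1.70% of all genes, and at an unadjusted edgeR p under 0.05 these counts were 3 and 4, beside 26.7% of all genes in either direction. The median log2 fold change of the list was 0.00 in non-Paneth and 0.09 in Paneth cells, near that of all genes. For this list too, the part of cell make-up was not tested. Mt1, which encodes a metal-binding metallothionein, was higher in GRKO cells of both fractions, from 31.5 to 57.6 CPM in WT to 76.5 to 106.9 CPM in GRKO Paneth libraries (log2 fold change 1.19, edgeR adjusted p = 0.0331) and with 1.75 in non-Paneth cells (edgeR adjusted p = 1.04e-05). Cdkn1a, the gene of the cell cycle inhibitor p21, was higher in Paneth cells (0.87, edgeR adjusted p = 0.0411) and lower in non-Paneth cells (−1.40, edgeR adjusted p = 3.44e-05), and the difference of 2.27 was past the threshold (edgeR adjusted p = 7.77e-05). In non-Paneth cells Pck1, which encodes an enzyme of gluconeogenesis, had a value of −2.31 (edgeR adjusted p = 0.0123). The lipoprotein lipase inhibitor gene Angptl4 had −1.99 (edgeR adjusted p = 0.0047). Zfp36, which encodes an mRNA-destabilizing protein and is also an immediate early gene, had −2.17 (edgeR adjusted p = 0.00286). The transcription factor gene Klf15 had −1.62 in non-Paneth cells (edgeR adjusted p = 0.0239), where it was low at 1.04 to 3.03 CPM in WT and 0.136 to 1.02 CPM in GRKO libraries, and its effects differed between the fractions by 2.06 (edgeR adjusted p = 0.0312).

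Close relatives of the targets were read beside them, and the part of cell make-up in their values was not tested. Of 10 relatives, 9 were tested, and in GRKO non-Paneth cells 5 were lower and 1 was higher, beside 19.8% and 17.5% of all genes, with a median log2 fold change of −0.57. In Paneth cells none was called, beside 3.22% of all genes, and 1 was higher at an unadjusted edgeR p under 0.05, beside 26.7% in either direction. Dusp6, a phosphatase gene that limits ERK signalling, was found at 44.1 to 91.1 CPM in WT and 14.5 to 17.9 CPM in GRKO non-Paneth libraries (log2 fold change −2.43, edgeR adjusted p = 6.32e-05), and at 12.3 to 20.7 and 14.9 to 19.8 CPM in Paneth libraries. Dusp5, another phosphatase gene of this kind, had −1.10 in non-Paneth cells (edgeR adjusted p = 8.31e-04) and Dusp4 had 0.67 (edgeR adjusted p = 0.0262). The effects on Dusp5 and Dusp6 differed between the fractions by 1.78 and 2.39 (edgeR adjusted p = 0.00149 and 0.00228). Sgk2, a kinase gene related to Sgk1, had −1.87 in non-Paneth cells (edgeR adjusted p = 3.80e-04). Tsc22d1 and Tsc22d4, of the family of Tsc22d3, had −0.69 and −0.57 in non-Paneth cells (edgeR adjusted p = 0.00108 and 0.00105), and their effects differed between the fractions by 0.63 and 0.79 (edgeR adjusted p = 0.0317 and 0.00386).

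**Figure D4:**
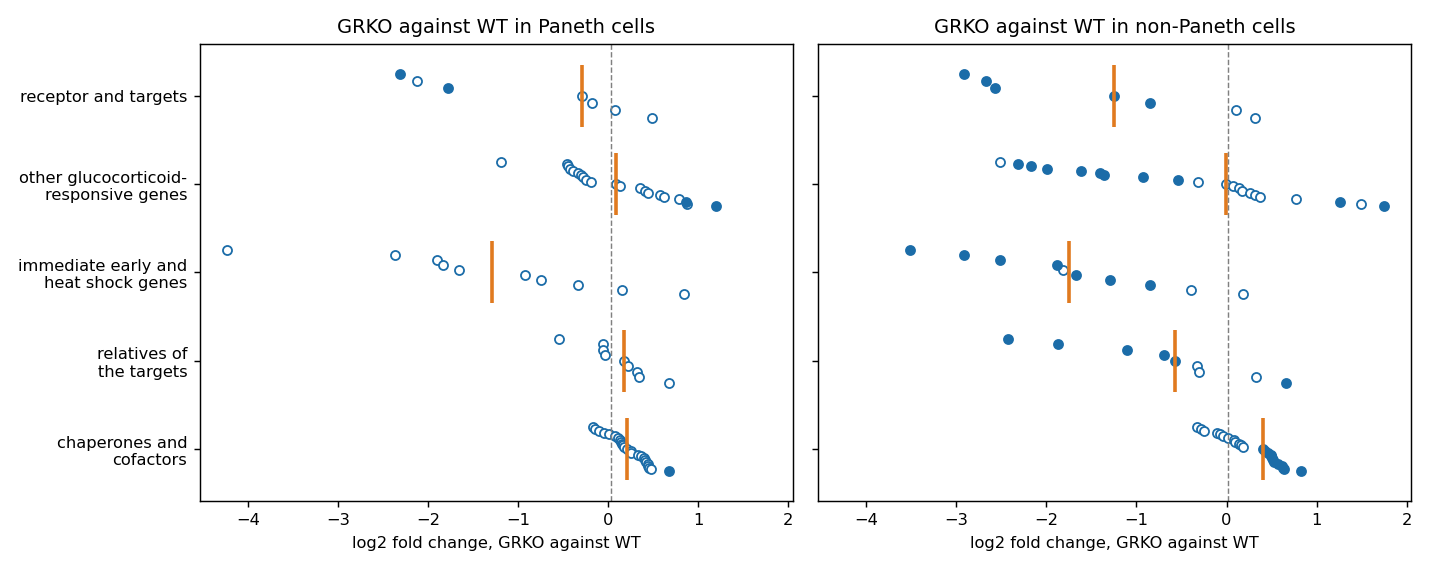
Log2 fold change of GRKO against WT for each tested gene of 5 lists in Paneth (left) and non-Paneth cells (right), with filled points for an adjusted p under 0.05, an orange line at the median of each list and a dashed line at the median of all genes tested. The receptor and its targets, with the deleted gene Nr3c1 counted, have a median of −1.25 in non-Paneth cells. The immediate early and heat shock genes have medians of −1.29 and −1.74.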

How the data were processed

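The authors sorted crypt cells by FACS, made stranded TruSeq libraries, aligned single-end reads with STAR 2.7.10a to mm39 and counted reads per gene during alignment. Trimmomatic 0.39 is named in the submitters' processing notes. The deposited values are raw counts, whole numbers without normalization, and all 12 columns were used. Reads that map to several places or overlap several genes are not counted by this procedure, and the sources read do not state which strand was counted. Of 55414 genes, 54749 were named through GENCODE vM39 on GRCm39, whose release may differ from that of the authors.

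Groups were taken from the sample titles. One edgeR 4.0.16 fit in R 4.3.3 over all 12 libraries (filterByExpr, TMM, glmQLFit with robust estimates, glmQLFTest, 1 mean per group) gave all 4 comparisons, with Benjamini-Hochberg adjustment over 13057 genes and a threshold of 5%. The 95% intervals come from the fit's SE. The procedure was also run on simulated counts with known changes. Each gene there had 1 mean over all 12 libraries before those changes, so the large differences between the fractions were not imitated. TMM factors lay between 0.656 and 0.826 in Paneth and between 1.20 and 1.50 in non-Paneth libraries. Correlations with Nr3c1 used TMM-scaled log2 CPM with a prior count of 2.

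After group means were removed, same-numbered libraries of the 2 WT fractions correlated at 0.349, 0.229 and 0.238, all above the limit of 0.1, so the numbers were taken to pair them. GRKO Paneth and non-Paneth libraries correlated at 0.0129, 0.262 and 0.465 and were not taken as pairs, nor were WT and GRKO libraries. Between genotypes, libraries of number 2 correlated at 0.156 in Paneth and 0.166 in non-Paneth cells, and those of the other numbers at 0.0975 or less. WT and GRKO libraries come from different mice, so passing the limit does not by itself show pairing. Pairs of libraries within a group differed by a chi-square per degree of freedom of 13.2 to 50.5 and each was kept as a sample of its own. The labels name no sequencing or preparation batch, and a batch that followed genotype or fraction cannot be told apart from it.

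The members and the gene lists were chosen with earlier results of these data known. All members are named, and from each list up to 6 genes with the largest log2 fold change among those past the threshold, and the 5 genes most correlated with Nr3c1. Alternatives were DESeq2 1.42.0, RLE scaling, library totals only, scaling without Lyz1 and Defa genes, no filter, at least 10 counts in every library of 1 group compared, a fit restricted to the 2 groups of a comparison, replicate blocks, a threshold of 1%, and libraries left out.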

Additional observations from a re-analysis of the deposited data

Results flagged for a closer look

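Errfi1 was singled out because the effect of losing the receptor on it differed between the fractions by a direct test. Such differences were common, with 18.7% of all genes tested called, and Errfi1 was the 1 member called of 7 tested. The difference for Errfi1, Paneth minus non-Paneth, was 1.33 on the log2 scale (SE 0.24, edgeR adjusted p = 0.00242), with 0.08 in Paneth cells and −1.25 in non-Paneth cells. In GRKO cells its TMM-scaled level was 16.2 ± 1.03 CPM in Paneth and 14.1 ± 1.92 CPM in non-Paneth cells (SD, n = 3), and these groups overlapped, whereas in WT cells it was 15.3 ± 1.98 and 33.5 ± 7.45 CPM (SD, n = 3). The enterocyte markers of the non-Paneth libraries moved with it, with sums of 13575 to 16199 CPM in WT and 3619 to 4376 CPM in GRKO, and their part in the difference was not tested.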

How the results depend on the processing

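Of 469 values of the members under alternatives, 429 kept their direction and their side of the threshold, 12 lost the call, 16 gained one and 12 changed sign. The 5 members called lower in non-Paneth cells stayed so under all 15 alternatives. In Paneth cells the 420 genes called became 0 at a false discovery rate of 1%, 1464 with DESeq2, 2 with library totals only, 1780 with no filter, 0 with a fit on only the groups compared, 977 with a replicate block by number, 1 with both libraries of WT replicate 2 left out, and 0 to 1618 with 1 library left out. The 2 members called there became 0 at 1%, 1 with library totals only, 4 with no filter, 0 with a fit on only the groups compared, 0 with both libraries of WT replicate 2 left out, and 0 to 2 with 1 library left out. In non-Paneth cells 4869 genes became 3002 at 1%. For the difference between the fractions, 2446 genes became 955 at 1% and 1563 (without WT non-Paneth replicate 2) to 2607 with 1 library left out. The 1 member called there became 2 with DESeq2, with no filter, with the replicate block by number and with the block by number within genotype, each time with Sgk1 (adjusted p of 0.0445, 4.96e-04, 0.0475 and 0.00676), and 1 to 2 with 1 library left out. In the WT comparison the block by number within genotype changed no member's call but that of Fkbp5.

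Values that changed sign, none of them past the threshold under that alternative, were Errfi1 in Paneth cells at −0.011 without WT Paneth replicate 3 (−0.011 to 0.17 with 1 library left out) and Fkbp5 in non-Paneth cells at −0.087 without GRKO non-Paneth replicate 2 (−0.087 to 0.14). For the difference they were Klf9 at −0.082 with library totals only and −0.0089 without WT Paneth replicate 1 (−0.0089 to 0.36), and Nr3c1 at −0.15 without GRKO Paneth replicate 3 (−0.15 to 0.64). For WT Paneth against non-Paneth cells they were Dusp1 at −0.58 with library totals only, −0.062 with the replicate block by number, −0.13 with the block within genotype, −0.87 without WT Paneth replicate 1 and −0.057 without WT non-Paneth replicate 3 (−0.87 to 0.51), Fkbp5 at −0.24 and Klf9 at −0.044 with library totals only. With library totals only the median of all genes moved to 0.31 in non-Paneth cells, −0.28 for the difference and −0.68 in the WT comparison, and calls over all genes split into 4348 higher and 1478 lower in non-Paneth cells (2283 and 2586 with TMM), 752 and 1836 for the difference (1496 and 950) and 1097 and 7892 in the WT comparison (3133 and 3491). Apart from library totals and the alternatives that left out libraries or genes, the cause of these changes was not tested. Depth limits Zbtb16 (at most 2 counts per library) and Sgk1 in Paneth cells (18 to 118 counts).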

Other observations

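Other steroid receptors and the enzymes that set local glucocorticoid levels were listed as well. Nr3c2, the gene of the mineralocorticoid receptor, which also binds glucocorticoids, was found at 12.3 to 14.5 CPM in WT and 11.2 to 21.2 CPM in GRKO Paneth libraries, and at 29.7 to 35.7 and 25.02 to 29.4 CPM in non-Paneth libraries. It was lower in GRKO non-Paneth cells (log2 fold change −0.52, edgeR adjusted p = 0.0246) and its value in Paneth cells was 0.37 (edgeR adjusted p = 0.193), a difference of 0.90 (edgeR adjusted p = 0.0206). Hsd11b2, the gene of the enzyme that inactivates glucocorticoids, did not pass the threshold in either fraction (edgeR adjusted p = 0.963 and 0.418). Hsd11b1, the gene of the enzyme that reactivates them, had no count in any library, and the progesterone receptor gene Pgr was too low to be tested.

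Including Sgk1, 145 genes held the core of the response element in a promoter window, and 36 of them were tested. In GRKO non-Paneth cells 10 were lower, Sgk1 among them (27.8%, where 19.8% of all genes were), and 6 higher (where 17.5% of all genes were). In GRKO Paneth cells 1 was lower, which was Sgk1 itself, and 2 were higher, where 1.52% and 1.70% of all genes were.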
